A study of Rattus norvegicus with 18 samples.

Results

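The genes described here carry out antigen presentation by major histocompatibility complex (MHC) class II and complement activation at C3, measured in the brains of male Sprague-Dawley rats kept from paradoxical sleep, the state also called rapid eye movement sleep, and in rats allowed to regain it. The members were every probe set of the Affymetrix rat array whose platform annotation names Cd74, RT1-Da, RT1-Ba, RT1-Bb, RT1-Db1, C3, Serping1 or Ciita. This gave 14 of the 31099 probe sets, for all 8 genes. Of these, 6 probe sets, 1 each for Cd74, RT1-Da, RT1-Ba, RT1-Bb, C3 and Serping1, passed a filter that left out the 40% of probe sets with the lowest mean, here a signal under 19.7. The other 8 probe sets, among them all those of RT1-Db1 and Ciita, were below it.

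Recovery rats had 72 h of deprivation by the flowerpot method, in which a platform over water wakes the rat when its muscles relax, and then 6 h of undisturbed sleep. These times are those of the sample labels; the treatment text can also be read as placing the 6 h after 78 h of deprivation. Deprived rats had 78 h of it, and control rats stayed in the home cage. All rats carried electrodes for sleep recording. Each state held 12 rats in 2 sets of 6, and equal masses of RNA from the right hippocampal formation and the right neocortex were pooled within each set, so the spread between single rats was not measured. Set 1 was pooled independently a second time and hybridised on 2 arrays per group, and set 2 on 1 array. This makes 18 arrays of 12 pools, or 2 pools for each of 6 combinations of state and structure. The number of arrays limits the precision. In such tissue samples fewer cells of a type and less RNA per cell cannot be told apart.

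MHC class II molecules are pairs of an alpha and a beta chain that carry peptides from endocytosed proteins to the surface of antigen-presenting cells, where CD4 T cells read them. In the rat, RT1-Da and RT1-Db1 encode the alpha and beta chains of one class II molecule and RT1-Ba and RT1-Bb those of another, while Cd74 encodes the invariant chain that occupies the peptide groove until the molecule reaches the endosome. Ciita encodes the transactivator that switches these genes on. In the healthy brain class II is low in parenchymal microglia and higher in macrophages and dendritic cells of the meninges, the choroid plexus and the perivascular space. C3 is the complement protein on which the classical, lectin and alternative pathways converge, and its fragments tag surfaces, synapses included, for uptake by phagocytes. Serping1 encodes the C1 inhibitor, which blocks the proteases that start the classical and lectin pathways.

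The transactivator acts at class II promoters through proteins bound to an X box and a Y box, so the promoter stretches of the 4 class II chain genes are shown with these letters in capitals. The sequences are from RefSeq on the GRCr8 build, 80 bases each, 5′ to 3′ on the strand of the gene; promoters were found for 6 of the 8 members. The RT1-Da stretch lies at chr20:4515313-4515392 on the plus strand, that of RT1-Db1 at chr20:4560216-4560295 on the minus strand, that of RT1-Ba at chr20:4576961-4577040 on the plus strand and that of RT1-Bb at chr20:4604153-4604232 on the minus strand.
RT1-Da: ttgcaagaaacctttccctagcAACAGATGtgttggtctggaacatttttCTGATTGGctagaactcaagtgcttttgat
RT1-Db1: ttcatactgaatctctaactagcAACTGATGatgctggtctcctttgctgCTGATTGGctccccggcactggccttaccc
RT1-Ba: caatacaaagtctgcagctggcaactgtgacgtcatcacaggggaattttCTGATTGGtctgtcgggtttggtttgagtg
RT1-Bb: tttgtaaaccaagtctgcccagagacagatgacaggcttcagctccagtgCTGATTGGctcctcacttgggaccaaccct
Letters of the X box core, AACNGATG, and of the Y box, CTGATTGG, were searched on both strands of the 250 bases before and 50 bases after each annotated start, and their matches did not overlap. The Y box letters were present in all 4 promoters and in 1172 of 33469 promoters in the table (3.5%). The X box letters were present in RT1-Da and RT1-Db1 and in 864 promoters of the table (2.58%). Neither was present in this window of Cd74 or C3. The letters were chosen with these promoters in view, and a match is a description of sequence only.

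Signals below are linear MAS5 signals, and for set 1 they are the geometric mean of both arrays. As a check of the structure labels, Prox1, a transcription factor of dentate granule cells, was higher in the hippocampal formation (log2 difference 2.03), as were all 6 probe sets of Zbtb20 (0.77 to 1.49), while Tbr1, a transcription factor of deep-layer neocortical neurons, was lower (-1.03) and both probe sets of Rorb were not called (-0.25 and -0.06).

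Cd74, the invariant chain, was lower in the hippocampal formation than in the neocortex in every animal pool. Its hippocampal signals in the recovery, deprived and control pools were 54.2, 49.8 and 53.6 in set 2 and 53.6, 60.3 and 60.9 in set 1. Its neocortical signals in the same order of states were 90.9, 77.9 and 73.2 in set 2 and 86.5, 108 and 128 in set 1. The hippocampal pools were tightly grouped and did not overlap with the neocortical ones, which spread more widely, mainly through set 1.

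RT1-Da, the alpha chain of the RT1-D molecule, showed the same separation. Its hippocampal signals in the recovery, deprived and control pools were 37.1, 20.6 and 36.2 in set 2 and 36, 47.6 and 43.2 in set 1. Its neocortical signals were 67.3, 54.7 and 62.2 in set 2 and 74.3, 99.2 and 119 in set 1. The structures did not overlap, and the deprived hippocampal pool of set 2 was the lowest of all 12.

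RT1-Ba, the alpha chain of the RT1-B molecule, had hippocampal signals of 23.6, 17.9 and 24.4 in the recovery, deprived and control pools of set 2 and of 25.9, 26.1 and 29 in those of set 1. In the neocortex it had 37.8, 33.1 and 32.6 in set 2 and 31.5, 58.6 and 63.1 in set 1. No hippocampal pool reached the lowest neocortical one, and the deprived and control neocortical pools of set 1 stood above the other 10 pools. That lowest neocortical pool, recovery in set 1, averaged arrays of 21.5 and 46.1, a gap of 1.1 on the log2 scale. Single arrays of the structures overlapped, since hippocampal ones reached 32.1.

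RT1-Bb, the beta chain partner of RT1-Ba, had several pools near or under the filter level. Its hippocampal signals were 20.7, 5.9 and 16.8 in the recovery, deprived and control pools of set 2 and 20.1, 30.5 and 21.4 in those of set 1. Its neocortical signals were 24.6, 10.7 and 23.8 in set 2 and 32.8, 40.1 and 51 in set 1. Here the structures overlapped, and the deprived pool of set 2 was the lowest in both structures.

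C3 had the widest spread of the 6 members over the neocortical pools. Its hippocampal signals in the recovery, deprived and control pools were 36.7, 37.6 and 45.1 in set 2 and 54.8, 55 and 112 in set 1. Its neocortical signals were 45.8, 48.4 and 64.6 in set 2 and 83.3, 164 and 216 in set 1. Every set 2 pool was below its set 1 counterpart, and the structures overlapped because the sets lay so far apart.

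Serping1, the C1 inhibitor, separated by structure. Its hippocampal signals in the recovery, deprived and control pools were 57.3, 55.6 and 68.8 in set 2 and 55, 56.4 and 58.3 in set 1. Its neocortical signals were 113, 107 and 106 in set 2 and 105, 130 and 114 in set 1. The structures did not overlap and the sets did.

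**Figure D1:**
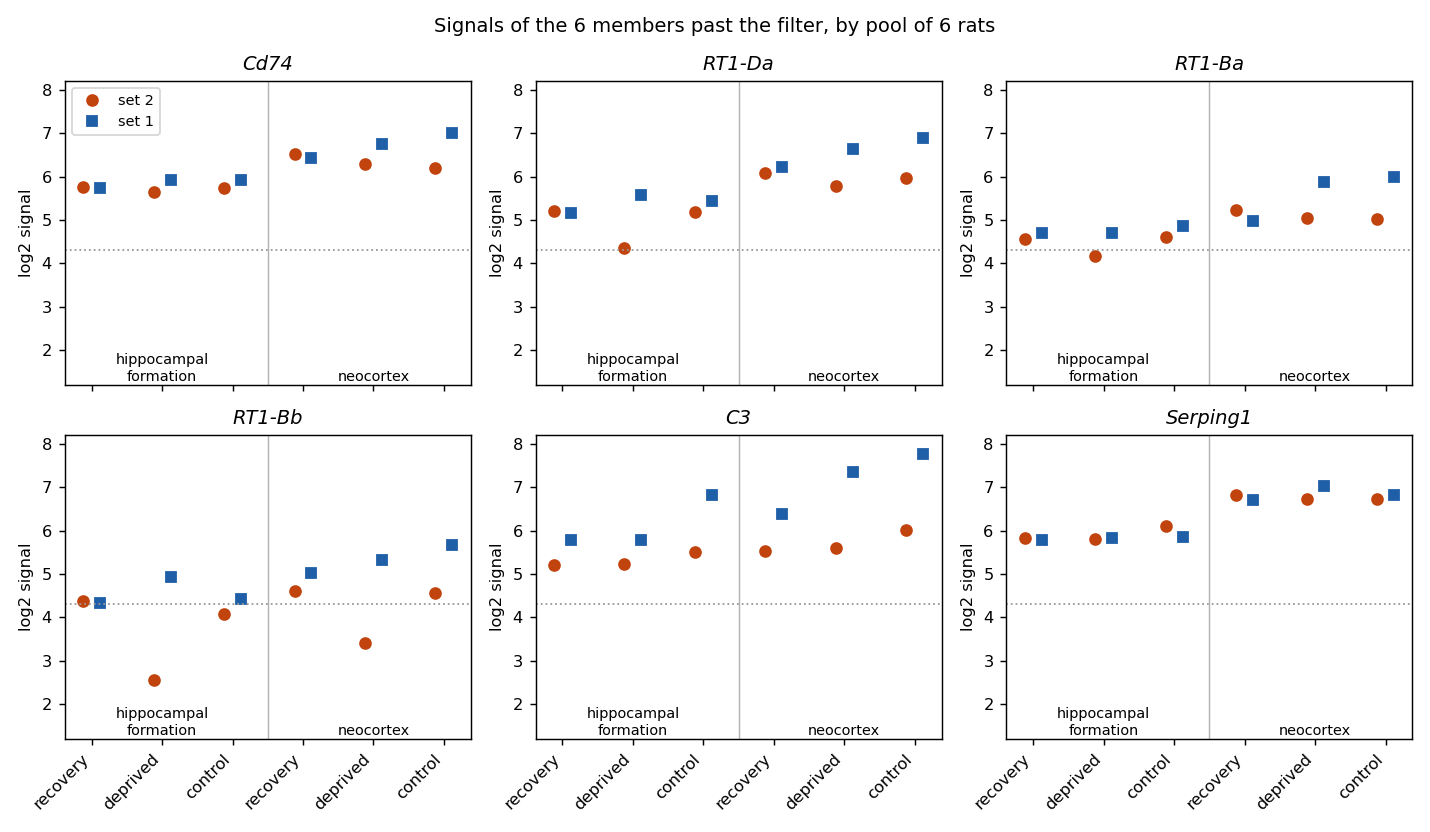
Log2 signal (y axis) of the 6 members past the filter in each pool of 6 rats, by structure and sleep state (x axis), with circles for set 2 and squares for set 1; the dotted line is the filter level, a log2 signal of 4.3. C3 is lower in set 2 than in set 1 in all 6 pairs, and Serping1 separates by structure.

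RT1-Db1, the beta chain partner of RT1-Da, was measured by 2 probe sets, both below the filter. The hippocampal signals of 1370383_s_at were 6.3, 9.1 and 11 in the recovery, deprived and control pools of set 2 and 13.6, 12.4 and 21.2 in those of set 1. Its neocortical signals were 18.9, 19.1 and 17.1 in set 2 and 17.5, 18.4 and 31.4 in set 1. The hippocampal pool was the lower in 6 of 6 animal pools, by 0.36 to 1.58 on the log2 scale, as it was for 1381593_x_at of RT1-Ba, by 0.16 to 1.92. The suffixes of these 2 probe sets mark probes that match more than 1 transcript, and class II chain genes resemble each other in sequence, so neither signal can be given to 1 gene with certainty. The probe sets 1392334_at and 1377334_at of RT1-Ba went the other way in 4 and 2 of 6 animal pools, with array medians of 10.4 and 5.15. The further probe sets of RT1-Db1 (1370382_at, arrays from 0.7 to 18.1) and RT1-Bb (1371065_at, 0.4 to 6.8) were likewise below the filter.

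The transactivator Ciita was dim throughout. Its probe set 1369214_a_at ranged over the arrays from 1 to 27.2 with a median of 13.4, and 1379381_at from 3.3 to 17.2 with a median of 8.65. The 2 arrays of 1 set 1 pool differed by up to 3.43 on the log2 scale for the first of these, and by 0.76 for the second, so no order of groups is read from either.

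The first comparison was that of the structures, made within the 6 animal pools because both structures came from the same rats. Cd74, RT1-Da, RT1-Ba, C3 and Serping1 were lower in the hippocampal formation, each in 6 of 6 animal pools. RT1-Bb was also lower in 6 of 6, but it passed the filter through the neocortical pools. RT1-Da was 2.15-fold lower (log2 difference -1.10, SE 0.117, adjusted p = 0.000997 by limma with Benjamini-Hochberg adjustment over all 18625 probe sets) and Serping1 1.92-fold lower (-0.94, SE 0.0828, adjusted p = 0.000488). RT1-Ba was 1.69-fold lower (-0.76, SE 0.138, adjusted p = 0.00997), Cd74 1.67-fold (-0.74, SE 0.1, adjusted p = 0.003), C3 1.65-fold (-0.72, SE 0.16, adjusted p = 0.0211) and RT1-Bb 1.58-fold (-0.66, SE 0.165, adjusted p = 0.0319).

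Across the whole array 19.9% of the probe sets were called in this comparison and 10.5% were called lower in the hippocampal formation, against 5 of the 5 members whose mean was above the filter level in every group (Cd74, RT1-Da, RT1-Ba, C3 and Serping1). The median log2 difference of these 5 was -0.76, beside -0.01 over all probe sets. RT1-Bb is left out of these counts because it passed the filter through the neocortical pools, with a mean log2 signal of 4.11 in the hippocampal formation and 4.77 in the neocortex around the filter level of 4.3. The 5 members above the filter level in every group were lower in the hippocampal formation in each set taken alone. The log2 difference of C3 was -0.40 (SE 0.103) in set 2 and -1.04 (SE 0.164) in set 1, and that of RT1-Da -1.02 (SE 0.144) and -1.19 (SE 0.128). RT1-Bb was not called in set 2 alone (-0.54, adjusted p = 0.1), without the filter on dim probe sets (adjusted p = 0.0679), or when any 1 of 5 of the 6 animal pools was left out (all but the control pools of set 2, adjusted p 0.0563 to 0.134). With 16 added to the signals before log2 its difference was -0.38. C3 was not called without the control pools of set 1 (-0.65, adjusted p = 0.0711) or the recovery pools of set 1 (-0.67, adjusted p = 0.0898), and RT1-Ba not without the deprived pools of set 1 (-0.71, adjusted p = 0.0604) or with 1 of the 2 technical arrays of set 1 (-0.58, adjusted p = 0.0512).

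The genes that work with class II did not share this direction. Of 19 listed partners, 15 were on the array and 10 passed the filter, of which 3 were higher in the hippocampal formation and 0 lower. Of all probe sets 19.9% were called, so this count is not read as a shift of the list. Its median log2 difference was 0.11, with 7 genes above 0 and 3 below. RT1-DMa, the alpha chain of the chaperone that exchanges the invariant chain peptide, was higher (0.50, SE 0.0809, adjusted p = 0.00616), while its partner RT1-DMb stood at -0.07 (adjusted p = 0.499). Marchf1, a ubiquitin ligase that sends class II to degradation, was higher (0.44, adjusted p = 0.00563), as was Ctss, the protease that trims the invariant chain (0.22, adjusted p = 0.0353). Of the X box proteins, Rfx5 stood at -0.18 (adjusted p = 0.141) and Rfxap at 0.20 (adjusted p = 0.16). Class I presentation had 12 genes past the filter and 0 were called (median 0.02). With the set as a block 8006 probe sets were called in this comparison, against 3700 without it, among them 6 of 10 class II partners, 2 of 12 class I genes and 8 of 13 complement genes.

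Other complement genes moved in both directions. Of 13 past the filter, 3 were lower in the hippocampal formation and 2 higher, with a median of -0.14, where 19.9% of all probe sets were called. C5ar1, the receptor of the C5a fragment (-0.64, adjusted p = 0.0226), Cfp, which encodes properdin, the stabiliser of the alternative pathway convertase (-0.45, adjusted p = 0.0363), and C1s, a protease that the C1 inhibitor blocks (-0.37, adjusted p = 0.0471), were lower, as C3 and Serping1 were. Cd55, which speeds the decay of C3 convertases, was higher (1.18, adjusted p = 0.0067), and so was Masp1 of the lectin pathway (0.58, adjusted p = 0.00121). C1qa, C1qb and C1qc, the chains of the recognition molecule of the classical pathway, stood at -0.22, -0.08 and -0.18 and were not called.

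Markers of meninges and of perivascular and meningeal macrophages moved with the members between the structures. Those of the choroid plexus did not. Of 4 choroid plexus markers past the filter 0 were called, and 3 were above 0 and 1 below (median 0.47). Of 15 genes of meninges and fibroblasts past the filter, 12 were lower in the hippocampal formation and 2 higher (median -0.92), with Col3a1 at -1.60, Col1a2 at -1.42 and Ogn at -1.34. The summed signal of that list was 2531 to 3895 in hippocampal pools and 4709 to 5411 in neocortical pools. Of 3 markers of perivascular and meningeal macrophages past the filter, Pf4 (-0.83) and Mrc1 (-0.67) were lower, and the summed signal was 64.3 to 94.2 in hippocampal pools and 90.4 to 154 in neocortical pools, while 6 further markers, Cd163 and F13a1 among them, were below the filter. Endothelial and mural markers were lower for 5 of 15 (median -0.24). Of 14 microglial markers, 1, Ctss, was higher and 0 were lower (median -0.05), and their summed signals overlapped, at 2058 to 2621 in hippocampal and 1964 to 2509 in neocortical pools. None of 13 markers of dendritic cells and lymphocytes on the array passed the filter. The part of these cells in the members' difference was not tested.

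**Figure D2:**
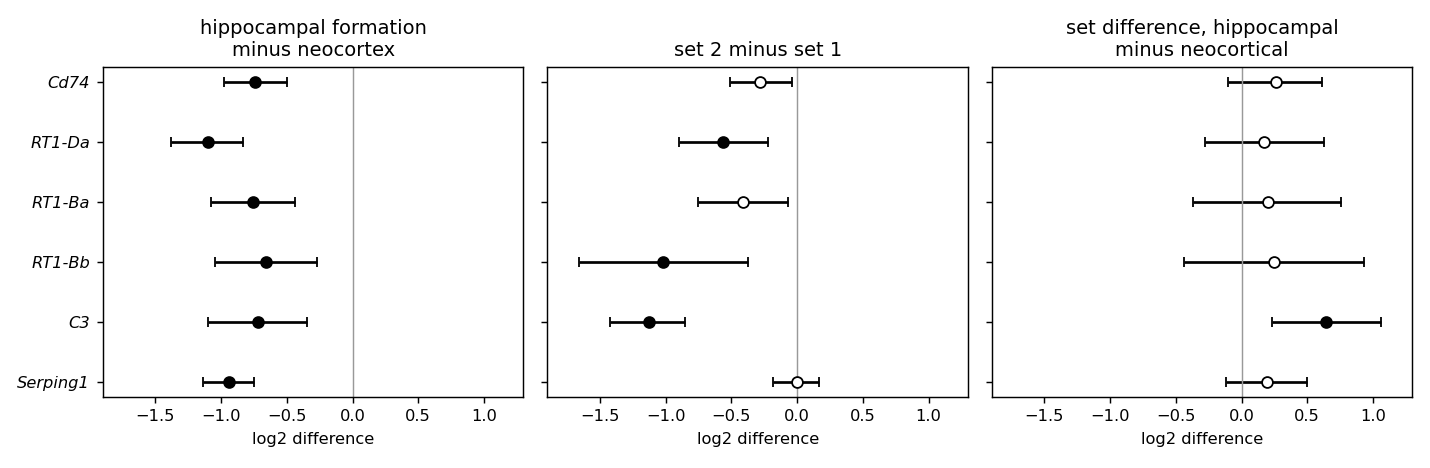
Log2 difference (x axis) of each member with its 95% interval for the hippocampal formation minus the neocortex, set 2 minus set 1, and the set difference in the hippocampal formation minus that in the neocortex; filled points passed an adjusted p of 0.05. The 6 members past the filter are below 0 in the first panel, C3, RT1-Bb and RT1-Da pass in the second, and C3, at 0.64, in the third. RT1-Bb passed the filter through the neocortical pools and set 1.

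**Figure D3:**
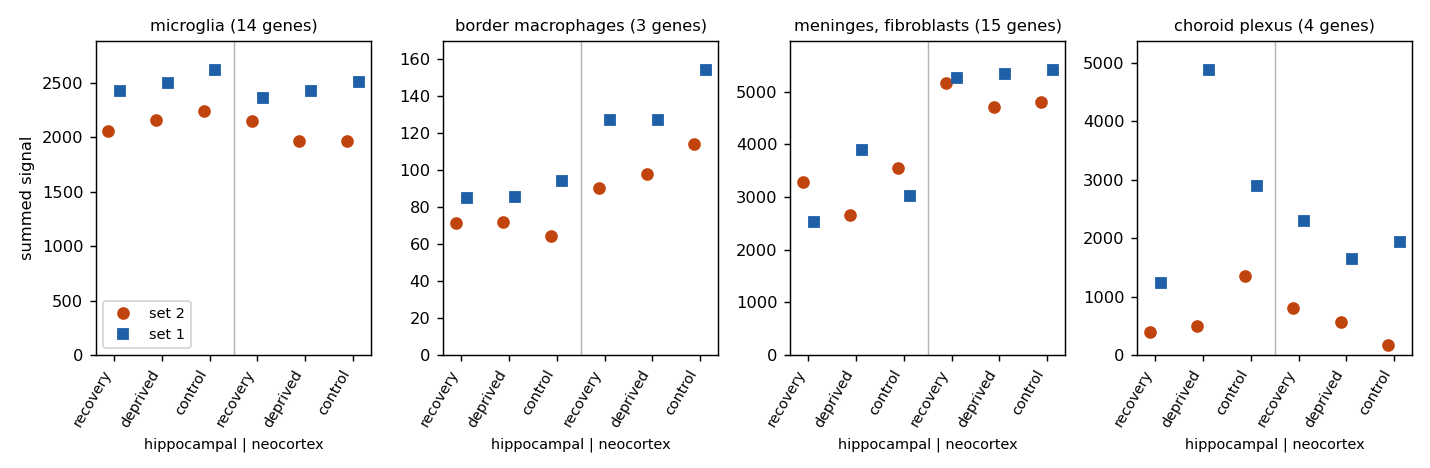
Summed signal (y axis) of the marker genes past the filter in each pool, by structure and state (x axis), with circles for set 2 and squares for set 1. Sums of meninges and fibroblasts separate the structures (2531 to 3895 in hippocampal and 4709 to 5411 in neocortical pools), and those of microglia are lower in set 2 within each structure; those of border (perivascular and meningeal) macrophages overlap between the structures, and those of choroid plexus overlap between the sets in hippocampal pools.

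C3 differed between the sets of rats, which the labels number as biological replicates. The contrast was tested over the means of both structures with the state as a factor, and C3 and RT1-Da, 2 of the 5 members above the filter level in every group, were lower in set 2. This compares with 29.3% of all probe sets called and 12.8% called lower. The median over these 5 was -0.41, beside 0.01 over all probe sets. What the sets differed in is not given in the sources used here, and every set 2 value rests on 1 array.

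C3 was 2.2-fold lower in set 2 (log2 difference -1.13, SE 0.129, adjusted p = 0.000185), by 0.55 to 1.76 over the 6 pairs of groups. The 2 arrays of a set 1 pool differed for C3 by a median of 0.14 and at most 0.53, the last close to the smallest of these gaps, and they measure the noise of pooling and hybridisation, not the spread between pools of different rats. In control neocortex, for example, the set 2 array gave 64.6, against 230.8 and 202.9 on the set 1 arrays. C3 stayed called under all 14 alternatives tried, with log2 differences of -1.46 to -0.81.

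RT1-Da was 1.47-fold lower in set 2 (-0.56, SE 0.153, adjusted p = 0.0205). RT1-Bb was 2.02-fold lower (-1.02, SE 0.291, adjusted p = 0.0252), but its mean log2 signal was 3.94 in set 2 and 4.95 in set 1, so it passed the filter through set 1. Its difference was -0.68 with a floor of 16 and -0.56 with 16 added before log2. Both calls rested on the deprived pools, and without those of either set the differences were -0.45 for RT1-Bb and -0.32 for RT1-Da (adjusted p 0.112 to 0.163), and both calls were also lost without the control pools of either set (-1.16 for RT1-Bb and -0.54 for RT1-Da, adjusted p 0.0735 to 0.104) and without the filter or the intensity trend (adjusted p 0.0727 to 0.108). The deprived pairs gave gaps of -2.37 in the hippocampal formation and -1.91 in the neocortex for RT1-Bb, and of -1.21 and -0.86 for RT1-Da. Cd74 (-0.28, SE 0.104, adjusted p = 0.0714) and RT1-Ba (-0.41, SE 0.153, adjusted p = 0.0699) did not pass. Both passed without the recovery pools of either set (-0.43 and -0.64, adjusted p 0.0146 to 0.0164), since the recovery pools of the 2 sets lay close together. Serping1 differed by -0.00 (SE 0.0786, 95% interval -0.18 to 0.17, adjusted p = 0.991).

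The set difference of C3 was larger in the neocortical than in the hippocampal pools, but the test of that gap passed in only 8 of 12 alternatives. It was -0.81 (SE 0.166, adjusted p = 0.00789) in the hippocampal pools alone and -1.46 (SE 0.156, adjusted p = 0.000193) in the neocortical pools alone. The difference between them, 0.64 (SE 0.188, adjusted p = 0.0414), passed the test, as did 14.7% of all probe sets and 1 of the 5 members above the filter level in every group. Without the deprived pools of either set it was 0.36 (adjusted p 0.254 to 0.294), and without the filter or the intensity trend its adjusted p was 0.119 and 0.147. In the neocortical pools alone C3 and RT1-Da (-0.64, adjusted p = 0.0112) were lower in set 2, against 8.96% of all probe sets. RT1-Bb was lower there too (-1.14, adjusted p = 0.00903). It is not set against that share, because its neocortical mean log2 signal was 4.2 in set 2 and 5.34 in set 1, around the filter level. In the hippocampal pools alone C3 passed, against 11.7% of all probe sets, while RT1-Bb stood at -0.89 (adjusted p = 0.147) and RT1-Da at -0.47 (adjusted p = 0.16) and did not pass.

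Some other genes of the pathways also differed between the sets, where 29.3% of all probe sets were called and 12.8% were called lower. The counts called in the class II partner, complement and class I lists were close to the first of these shares. In the complement list, though, every called gene was lower and 10 of 13 genes lay below 0, so the 12.8% called lower is the share to set beside it. Among class II partners 2 of 10 were lower, Ifi30, the lysosomal thiol reductase (-0.62, adjusted p = 0.000363), and Ctss (-0.35, adjusted p = 0.000228), and Rfx5 was higher (0.22, adjusted p = 0.0157). Among complement genes 4 of 13 were lower and 0 higher (median -0.29), namely Clu (-0.29), Masp1 (-0.36), C1qa (-0.37) and C1qb (-0.29). Of class I genes B2m (-0.28) and RT1-CE16 (-0.54) were lower and RT1-T24-4 (0.58) was higher.

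Several cell type markers moved with the set, in a contrast that called 29.3% of all probe sets and 12.8% as lower. All 4 choroid plexus markers past the filter were lower in set 2 (median -1.48), with Ttr at -2.23 and Sostdc1 at -1.84, and their summed signal was 398 to 1347 in set 2 and 1235 to 4878 in set 1 in hippocampal pools, and 175 to 809 and 1647 to 2286 in neocortical pools. The 14 microglial markers held 4 lower, among them Csf1r (-0.54), and 1 higher, Gpr34 (0.47). Their summed signal was 2058 to 2247 in set 2 and 2424 to 2621 in set 1 in hippocampal pools, and 1964 to 2152 and 2363 to 2509 in neocortical pools. Mrc1 (-0.50) and Pf4 (-0.45) were lower, as were 5 of 15 markers of meninges and fibroblasts, while 3 of 15 endothelial and mural markers were higher. The part of these cells in the set difference of C3 and class II was not tested.

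Over the 12 pools, with the mean of each structure subtracted, the class II genes varied together. The 6 pairs among Cd74, RT1-Da, RT1-Ba and RT1-Bb had Pearson correlations of 0.71 to 0.944 (median 0.864), those of C3 with them ran from 0.654 to 0.837, and those of Serping1 with the other 5 from 0.273 to 0.546. These pools share sets, arrays and, across structures, animals, so the values are descriptions. Among named genes that are not members, the profile of Cd74 was most like those of Fcgr3a, an immunoglobulin receptor of phagocytes (0.922), Clec4a3 (0.913), C1qa (0.904), Unc45a (0.889) and Plin2 (0.886). The profile of C3 was most like those of LOC102547113 (0.967), Acaca, an enzyme of fatty acid synthesis (0.946), Anxa3 (0.941), Csf1r, the receptor that macrophages and microglia need for survival (0.939), and Lhfpl2 (0.935).

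The study was designed to compare the sleep states, and 0 of 6 members were called in any of the 6 comparisons of states within a structure. Over all probe sets 0% were called as well. For deprived minus control, recovery minus control and recovery minus deprived, 204, 282 and 301 probe sets passed an unadjusted threshold of 0.05 in the hippocampal formation and 207, 209 and 169 in the neocortex, and no member was among them (smallest unadjusted p of limma 0.21). With the set as a block (the replicate block) limma called 0, 0 and 0 probe sets in the hippocampal formation and 2, 0 and 1 in the neocortex, and no member. Without the block, the 3 tests of whether a state difference differed between the structures called 0% of all probe sets and 0 of 6 members. With it, limma called 2 probe sets for recovery minus deprived, 0 for the other comparisons, and no member.

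For C3 the control pool was the highest of the 3 states in both structures and both sets. The log2 difference of recovery minus control in the hippocampal formation was -0.30 in set 2 and -1.03 in set 1, and in the neocortex -0.50 and -1.38. That of deprived minus control was -0.26 in set 2 and -1.02 in set 1 in the hippocampal formation, and -0.42 and -0.40 in the neocortex. The means of both sets were -0.66 in the hippocampal formation and -0.94 in the neocortex for recovery minus control, and -0.64 and -0.41 for deprived minus control. Each had an SE of 0.697 and an adjusted p of 1. With the replicate block, C3 had the smallest p of the members for recovery minus control in the neocortex (unadjusted p = 0.00155), which did not pass after adjustment (adjusted p = 0.544). In the hippocampal formation its adjusted p under the block was 0.559 for recovery minus control and 0.771 for deprived minus control. Recovery minus deprived was -0.04 in set 2 and -0.01 in set 1 in the hippocampal formation, and -0.08 and -0.98 in the neocortex.

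The signals of red cell genes and a measure of RNA integrity also varied over the states. The summed signal of 3 red cell genes in the recovery, deprived and control pools was 991, 1156 and 1510 in set 2 and 985, 1999 and 2922 in set 1 in the hippocampal formation. In the neocortex it was 1054, 1591 and 1678 in set 2 and 816, 1738 and 2206 in set 1. The control pool was the highest in both structures and both sets, as it was for C3, and the recovery pool the lowest. The median log2 difference of these genes for recovery minus control was -1.19 in the hippocampal formation and -1.08 in the neocortex, and 0 of 3 were called. The ratio of 3' to 5' signal of beta-actin, which rises as RNA is degraded, was 2.83, 2.35 and 2.61 in the recovery, deprived and control neocortical pools of set 2 and 3.17, 2.98 and 2.68 in those of set 1. In the hippocampal pools it was 2.39, 2.44 and 2.52 in set 2 and 2.33, 2.46 and 2.42 in set 1. In both sets the recovery pool thus had the highest ratio in the neocortex and the lowest in the hippocampal formation. The part of either in the differences of C3 was not tested.

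The class II genes had opposite signs in the sets where the neocortical recovery pools are set against controls. For recovery minus control in the neocortex, Cd74 had a log2 difference of 0.31 in set 2 and -0.57 in set 1, RT1-Da 0.11 and -0.68, RT1-Ba 0.21 and -1.0, and RT1-Bb 0.05 and -0.64. In set 1 the control pool was the highest and the recovery pool the lowest for all 4 genes, and in set 2 the recovery pool was the highest for all 4. A single set offers 1 pool per state, which allows no test, and every set 2 pool rests on 1 array. The 2 arrays of a set 1 pool had a median log2 gap of 0.3 for Cd74 and 0.12 for RT1-Da. For RT1-Ba and RT1-Bb it was 0.4 and 0.35. All 4 set 2 differences were about as large as these gaps or smaller. For RT1-Ba the set 1 recovery arrays in the neocortex were 1.1 apart. The 4 genes varied together over the pools, and the share of all probe sets with opposite signs was not counted. The mean of both sets for Cd74 was -0.13, with a 95% interval of -0.69 to 0.44, and for RT1-Da -0.28, with one of -1.22 to 0.66. Changes of that size in either direction are not excluded by 2 pools per group.

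Deprived pools showed a different pattern for 2 of the class II genes. Deprived minus control in the hippocampal formation was -1.51 in set 2 and 0.51 in set 1 for RT1-Bb, and -0.81 and 0.14 for RT1-Da. In the neocortex it was -1.15 and -0.35 for RT1-Bb and -0.19 and -0.26 for RT1-Da, so only the neocortical signs were shared by the sets. Serping1 had small differences in every case, from -0.31 to 0.04 in the hippocampal formation and from -0.31 to 0.19 in the neocortex. Its hippocampal control pools lay above the deprived and recovery ones, by differences that were not called (unadjusted p of limma 0.249 and 0.258). The share of all probe sets that separate in this way was not counted.

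Over the 5 members above the filter level in every group, deprived minus control had a median log2 difference of -0.30 in the hippocampal formation and -0.08 in the neocortex, recovery minus control -0.11 and -0.28, and recovery minus deprived 0.00 and -0.12. None of these members passed the test in any of the 6 comparisons.

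**Figure D4:**
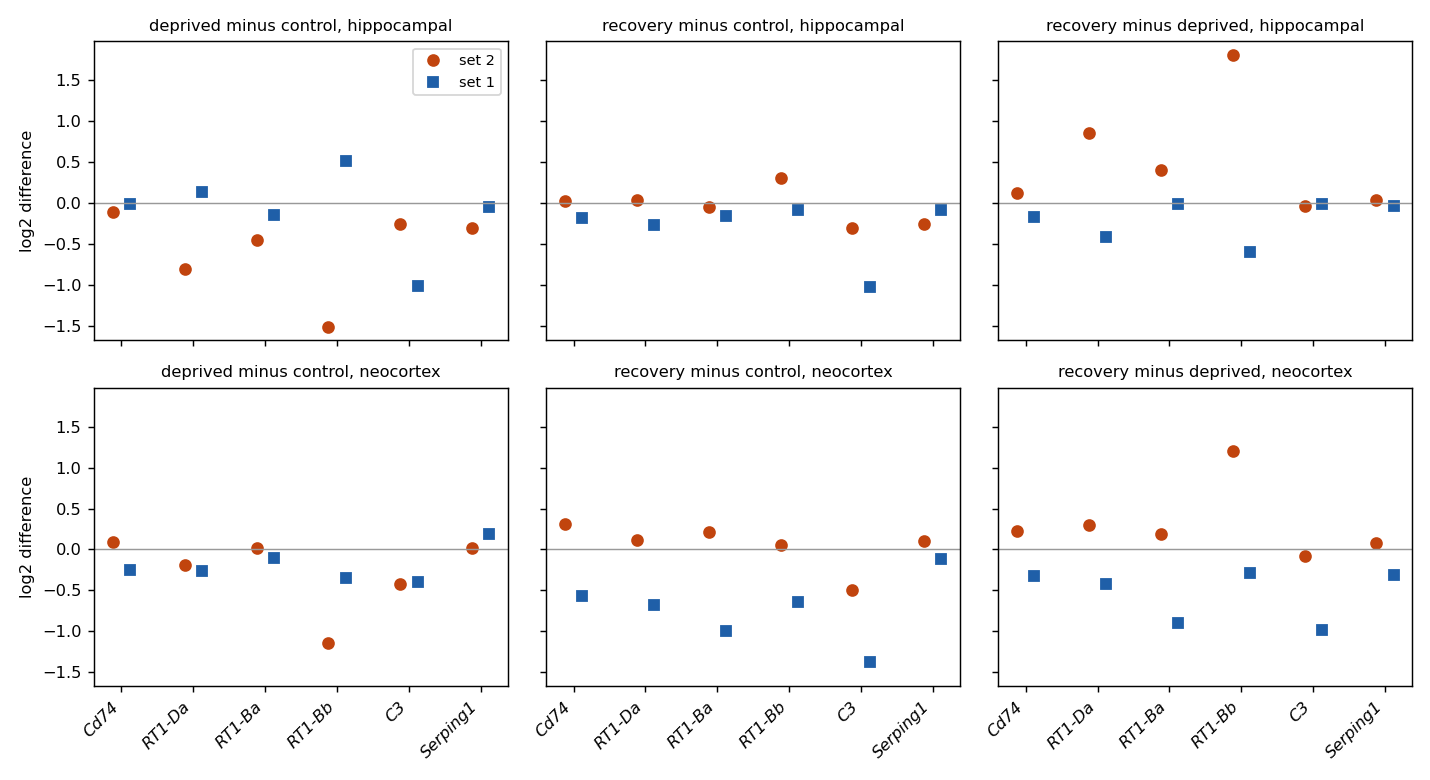
Log2 difference (y axis) between sleep states for each member (x axis), computed within set 2 (circles) and within set 1 (squares), with 1 pool per point on each side; upper panels show the hippocampal formation and lower panels the neocortex. In neocortical recovery minus control the 4 class II genes are above 0 in set 2 (0.05 to 0.31) and below 0 in set 1 (-1.0 to -0.57), while C3 is below 0 in both.

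Measures of RNA integrity differed between the structures and sets. The ratio of 3' to 5' signal was 2.33 to 2.52 in hippocampal pools and 2.35 to 3.17 in neocortical pools for beta-actin. By set it was 2.39 to 2.52 in set 2 and 2.33 to 2.46 in set 1 in hippocampal pools, and 2.35 to 2.83 and 2.68 to 3.17 in neocortical pools. For Gapdh it was 1.14 to 1.15 in set 2 and 1.09 to 1.17 in set 1 in hippocampal pools, and 1.12 to 1.17 and 1.05 to 1.08 in neocortical pools. In the neocortex set 2 thus had the lower beta-actin range, overlapping with that of set 1, and the higher Gapdh range. The part of RNA quality in the members' differences was not tested.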

How the data were processed

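The authors deposited intensity values per probe set on a linear scale, made with MAS5 per the submitters' processing notes; the version, detection calls and scaling target are not given in the sources used here. The trimmed means of the arrays lay between 99.66 and 99.74 and their medians between 32.1 and 37.1, so the deposited values had been scaled to a common level. Here values under 1 were set to 1 and log2 was taken, with no further normalization. The 57 control probe sets were excluded, arrays of a pool were averaged, and the lowest 40% by mean log2 (under 4.3) were removed, which kept 18625.

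Gene names came from the platform annotation, which gives 1 symbol for 20832 probe sets, several for 436 and none for 9831. Tests used limma 3.58.1 in R 4.3.3 (lmFit and eBayes with an intensity trend), with Benjamini-Hochberg adjustment over all kept probe sets and a threshold of 0.05. States were compared on a means model of the 6 groups (6 residual and 3.78 prior degrees of freedom), structures on hippocampal minus neocortical differences of the 6 animal pools (3 and 4.13), and sets on the mean of both structures with the state as a factor (2 and 8.22). The p-values measure the spread between pools of 6 rats. The state fits take the 12 pools as independent, although structures share rats. The scripts were tested on simulated data.

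In the series design the replicate number stands for 1 of 2 sets of rats. Deviations from the group means of same-numbered pools correlated at 0.607 to 0.682 in the hippocampal formation and 0.539 to 0.587 in the neocortex, so the set was also fitted as a block. The alternatives were a floor of 16, 16 added before log2, no filter, quantile normalization, 1 technical replicate only, no trend, 1 structure alone, the block, and each pool left out. Fits of 1 set alone or 1 structure alone for the structure and set contrasts were added after seeing the data.

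The members and the 14 lists of partner and marker genes were chosen with earlier results of these data known. Every member probe set is described; from each list up to 3 called genes with the smallest p, or the 1 with the smallest p, were named. RT1-DMb, Rfx5, Rfxap, Cfp, C1s, the C1q genes and further called set genes were named after their values were seen. Promoter sequences are RefSeq's (GRCr8). Figures were drawn with matplotlib 3.10.9 in Python 3.11.15.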

Additional observations from a re-analysis of the deposited data

Results flagged for a closer look

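C3 was flagged because its set difference differed between the structures by the test of that difference itself. The log2 difference of set 2 minus set 1 was -0.81 in the hippocampal formation and -1.46 in the neocortex, a difference of 0.64 (SE 0.188, 95% interval 0.23 to 1.06, limma adjusted p = 0.0414). The call was lost without the deprived pools of either set (0.36) and without the filter or the intensity trend (adjusted p 0.119 and 0.147). Groups of 2 pools are too small for a test of outlying pools.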

How the results depend on the processing

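Of 186 values of single members for structures and sets under alternatives, 3 changed sign, all of Serping1 for set 2 minus set 1, which stood at -0.00: it was 0.09 in hippocampal pools alone and -0.04 to 0.07 with 1 animal pool left out. Of 120 values of C3 for sleep states 6 changed sign, each with 1 pool left out; those values ran from -1.3 to 0.01 for deprived minus control in the hippocampal formation and -1.29 to 0.47 in the neocortex, and from -0.31 to 0.27 and -1.41 to 0.35 for recovery minus deprived, none of them called. The members called for set 2 minus set 1 numbered 3, a count that includes RT1-Bb, which passed the filter through set 1. The number was 1 without the filter, 1 without the trend, 1 in hippocampal pools alone and 1 to 5 with 1 animal pool left out. The 1 member called for the difference of the set effect between structures became 0 without the filter and 0 without the trend, and 0 to 1 with 1 animal pool left out. For hippocampal formation minus neocortex 4 to 6 members were called with 1 animal pool left out; Cd74, RT1-Da and Serping1 were called in all 15 alternatives, C3 and RT1-Ba in 13 and RT1-Bb in 8. With the replicate block 6 members were called for the structures (Cd74 -0.74, limma adjusted p = 2.39e-05) and 0 for any state comparison, so it changed no member's call. Over all probe sets it called 8006 between structures, against 3700 without it. The member counts for the structures include RT1-Bb, which passed the filter through the neocortical pools. With 2 pools per group and 1 array per set 2 pool, the fit without the block could not show state differences under the spread of the sets. The block took that spread out of the error, and the SE of the C3 state differences was 0.228 with it and 0.697 without it. Signals near the filter, RT1-Bb above all, are the least certain.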

Other observations

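Genes of inflammation that act beside class II and complement had list medians of 0.03 and 0.06 between the structures, beside -0.01 over all probe sets. Across the whole array 19.9% of probe sets were called, and 1751 of 18625 were called higher in the hippocampal formation. The interferon list had 6 genes below 0 and 7 above, and the acute phase list 4 and 6. Of 13 interferon response genes past the filter 3 were higher and 1 lower (median 0.03; 7 called with the set as a block), with Mx1, an antiviral GTPase, at a log2 difference of 1.05 (limma adjusted p = 0.000835), Ifngr2, a subunit of the interferon gamma receptor, at 0.32 and Irf9 at 0.35. Of 10 acute phase and NF-kB genes 4 were higher and 0 lower (median 0.06), with Cebpb, a transcription factor, at 1.16 and A2m, a protease inhibitor, at 1.04. The members were lower in the same comparison. In set 2 against set 1, A2m was lower (-0.86, adjusted p = 0.000275) and so was Jak1 (-0.22, adjusted p = 0.0027), 1 gene of each list, with medians of -0.13 in both.

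Of 11 astrocyte markers 2 were higher and 1 lower in the hippocampal formation, with Gfap at 0.48 and Vim at -0.48. In set 2 against set 1, 1 was higher and 5 lower, with Slc1a2 at -0.40. Of all probe sets 19.9% were called between the structures and 29.3% between the sets. The 1 neutrophil and monocyte marker past the filter, Lyz2, stood at -0.40 for the structures (adjusted p = 0.0847) and -0.20 for the sets (adjusted p = 0.0384). Of 3 red cell genes 0 were called in either comparison.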
